A study of Mus musculus with 12 samples.

Results

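The interferon regulatory factors (IRFs) are a family of transcription factors, and 8 of their genes were measured in sorted B cells of mice. The members were Irf1, Irf2, Irf3, Irf4, Irf5, Irf7, Irf8 and Irf9. They were taken as every probe set (a set of short oligonucleotides on the array that reads 1 or more transcripts) whose single gene symbol was one of these names. They were 8 of 18193 genes on the array, read by 14 probe sets. Irf3 had 4 probe sets, Irf4, Irf5 and Irf8 had 2 each, and the others had 1 each.

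The 12 arrays came from B cells of female C57BL/6 mice, sorted by flow cytometry straight from the organ and not cultured, with 3 arrays in each of 4 groups. The old mice were older than 15 months and the young mice 8 weeks old. The groups were age-associated B cells (ABC) of old mice from the spleen, B1 cells of old mice from the peritoneal cavity, B1 cells of young mice from the peritoneal cavity, and follicular (FO) B cells of old mice from the spleen. The titles call the B1 samples B1a. The labels give no surface markers for the sort. Nothing in them says whether the 3 samples of a group came from different animals, so every p-value here rests on the spread among arrays, which may be technical, and the small number of arrays limits the precision. All B1 cells came from the peritoneal cavity and all ABC and FO cells from the spleen, so organ and cell type cannot be told apart in any comparison between them.

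IRFs share a DNA-binding domain at the amino-terminal end that reads GAAA repeats, and members differ in what switches them on and in the partners they need. IRF4 and IRF8 are the lymphoid members: they bind DNA weakly alone and strongly with the ETS factors PU.1 (Spi1) and Spi-B, or with BATF, and in B cells IRF4 drives plasma cell differentiation while IRF8 is known for early B cell development, follicular B cell fate and germinal centres. IRF1 activates and IRF2 mostly represses the same interferon-response sites, IRF3, IRF5 and IRF7 are switched on by sensors of microbial nucleic acid and induce type I interferon, and IRF9 is the DNA-binding part of the complex ISGF3 that carries the type I interferon signal to DNA.

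The deposited values are intensities on a linear scale, and their log2 was tested. The median intensity of an array ran from 44 to 49.2. The 75th percentile was 346 on old B1 array 3 and 378 on old FO array 2, and between 400 and 412 on the other arrays. Results that rest on those 2 arrays are given without them below. The B cell markers Cd79a (8630 to 10600) and Ms4a1 (7720 to 9340) were bright on every array, while the brightest probe set of Pax5 was dim (21.1 to 120). Of 7 measured B cell genes, 0 were higher and 1 lower in ABC than in FO, and 2 higher and 0 lower than in old B1. In old B1, 1 was higher and 3 lower than in FO. In the same order, 9.96%, 12.8% and 16.4% of all genes were called. All 6 listed genes of age-associated B cells were higher in ABC than in FO, against 7.12% over all genes. In old B1, 3 of these 6 were higher and 2 lower than in FO. All 8 listed B1 genes were higher in old B1 than in FO, against 8.4% over all genes. The B1 list was also higher for 7 of its 8 genes in ABC than in FO. Of the follicular genes, 5 of 5 were lower in old B1 than in FO, against 8.02% over all genes. In ABC, 4 of these 5 were lower than in FO, against 2.84%. The lists were chosen with earlier results of these data known, so these counts are no independent check of cell identity.

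The promoters of the members were searched for motifs that interferon signalling and the IRFs themselves read. RefSeq (mouse build GRCm38.p6) lists 11 promoters for all 8 members, each 300 bases long, from 250 before to 50 after the transcription start. They were searched on both strands for TTCNNNGAA, the form bound by STAT dimers after interferon gamma and other cytokines (GAS), for a pair of GAAA spaced by any 2 bases, the interferon-stimulated response element (ISRE), and for GGAA followed after any 2 bases by GAAA, the composite ETS and IRF element (EICE). The promoters of Irf8, Irf1 and Irf7 are shown because these are the 3 genes called in the comparison of old B1 with old FO cells. Capitals mark GAS matches. The Irf8 promoter is chr8:120736108-120736407 on the plus strand, that of Irf1 is chr11:53769764-53770063 on the plus strand, and that of Irf7 is chr7:141266375-141266674 on the minus strand.
Irf8: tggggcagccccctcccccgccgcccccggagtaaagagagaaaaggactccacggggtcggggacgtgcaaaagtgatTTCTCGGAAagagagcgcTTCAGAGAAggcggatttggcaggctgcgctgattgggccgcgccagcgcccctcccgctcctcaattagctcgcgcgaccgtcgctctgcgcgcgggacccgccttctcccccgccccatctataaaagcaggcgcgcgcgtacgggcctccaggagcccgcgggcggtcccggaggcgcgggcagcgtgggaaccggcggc
Irf1: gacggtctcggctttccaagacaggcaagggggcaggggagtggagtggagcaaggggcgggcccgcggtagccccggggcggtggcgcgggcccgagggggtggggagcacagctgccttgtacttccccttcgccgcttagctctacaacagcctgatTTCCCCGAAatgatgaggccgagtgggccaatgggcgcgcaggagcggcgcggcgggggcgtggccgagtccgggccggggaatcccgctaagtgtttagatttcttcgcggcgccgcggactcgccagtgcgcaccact
Irf7: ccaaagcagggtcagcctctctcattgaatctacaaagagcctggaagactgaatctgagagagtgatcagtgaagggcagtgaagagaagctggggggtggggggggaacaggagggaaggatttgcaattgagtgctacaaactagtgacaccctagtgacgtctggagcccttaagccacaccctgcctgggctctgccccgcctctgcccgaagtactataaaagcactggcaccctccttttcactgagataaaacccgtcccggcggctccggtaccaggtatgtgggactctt

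Irf8 held the GAS matches TTCTCGGAA, starting 171 bases before the start, and TTCAGAGAA, 153 bases before it. Irf1 held TTCCCCGAA 90 bases before the start, and Irf7 held no match to any of these motifs in this window. Irf2 held the GAS match TTCCGAGAA 224 bases before its start, the ISRE match GAAAATGAAA 241 bases before it, and the EICE match GGAAGTGAAA 247 bases before it, of which the last pair overlap. No motif was matched in the listed promoters of Irf3, Irf4, Irf5 and Irf9. A GAS match was thus found in 3 of 8 members, and in 8.3% of 32851 listed promoters (9.55% of 27025 genes). ISRE matches were in 3.44% and EICE matches in 2.72% of all promoters. Irf1, Irf8 and Irf9 each have a second listed promoter, in which no motif was matched.

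Irf8 separated B1 cells from both splenic groups by more than any other member. Its probe set 1416714_at read 5521, 5827 and 5717 in ABC, 1059, 1011 and 513 in old B1, 952, 1357 and 1017 in young B1, and 5141, 5396 and 5239 in FO. ABC arrays lay above FO arrays without overlap, but by little, and every B1 array of either age was far below both. On the log2 scale the means were 12.47 ± 0.04 in ABC, 9.68 ± 0.58 in old B1, 10.10 ± 0.27 in young B1 and 12.36 ± 0.04 in FO (SD, n = 3 each). Irf8 was higher in ABC than in old B1 by 2.80 ± 0.24 on the log2 scale (SE), a 6.94-fold difference (adjusted p = 4.61e-05, limma with Benjamini-Hochberg adjustment over 18193 genes). Irf8 was lower in old B1 than in FO by a log2 difference of -2.68 ± 0.24, or 6.42-fold (limma adjusted p = 3.69e-05). Between ABC and FO the difference was 0.11 ± 0.24 and was not called (limma adjusted p = 0.883, 95% interval -0.43 to 0.65).

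The second Irf8 probe set, 1448452_at, gave the same picture. It read 2539, 2620 and 2868 in ABC, 465, 417 and 147 in old B1, 393, 472 and 378 in young B1, and 2236, 2093 and 2163 in FO. Fitted with every probe set as its own feature, it was higher in ABC than in old B1 by 3.13 ± 0.34 (limma adjusted p = 0.000229), and its difference was -2.82 ± 0.34 between old B1 and FO (limma adjusted p = 0.000305). On both probe sets old B1 array 3 was the lowest array of all 12. Without it the Irf8 difference was 2.46 between ABC and old B1 (limma adjusted p = 2.54e-06) and -2.35 between old B1 and FO (limma adjusted p = 1.88e-06). Macrophages and dendritic cells also use IRF8. The summed intensity of 15 macrophage markers was 16400 to 18300 in ABC, 30700, 29600 and 12500 in old B1, and 1160 to 3130 in FO. The summed intensity of 7 dendritic cell markers was 4900 to 5580 in ABC, 4180 to 4640 in old B1 and 680 to 1160 in FO. Of the 7, 1 was called higher and 1 lower in old B1 than in FO (median 0.21), where 16.4% of all genes were called. In ABC, 3 were higher and 0 lower than in FO, and 2 higher and 0 lower than in old B1. In these 2 comparisons 9.96% and 12.8% of all genes were called. The dendritic cell gene Zbtb46 read 341 to 517 in ABC, 38.1 to 172 in old B1 and 115 to 145 in FO. The part of these cells in the Irf8 differences was not tested. In sorted bulk samples, fewer cells of a type and less RNA per cell cannot be told apart.

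Irf4, the member that drives class switching and plasma cell differentiation, was not called in any comparison. Its probe set 1421173_at read 5092, 4167 and 5428 in ABC, 6735, 6203 and 7306 in old B1, 6718, 7132 and 6937 in young B1, and 4733, 7189 and 4848 in FO. Every B1 array was above every ABC array, whereas FO was split, with array 2 at the B1 level and arrays 1 and 3 among the ABC arrays. The difference was -0.47 ± 0.17 between ABC and old B1 (limma adjusted p = 0.0976), 0.30 ± 0.17 between old B1 and FO (0.283) and -0.17 ± 0.17 between ABC and FO (0.663). The FO array that read 7189 is the one with a low 75th percentile. Without it the Irf4 difference was -0.47 between ABC and old B1 (limma adjusted p = 0.0265) and 0.49 between old B1 and FO (limma adjusted p = 0.0305), both past the threshold, and the difference between ABC and FO was 0.02. The second Irf4 probe set, 1421174_at, was dim, between 110 and 167 on all arrays, and was not called in any comparison.

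**Figure D1:**
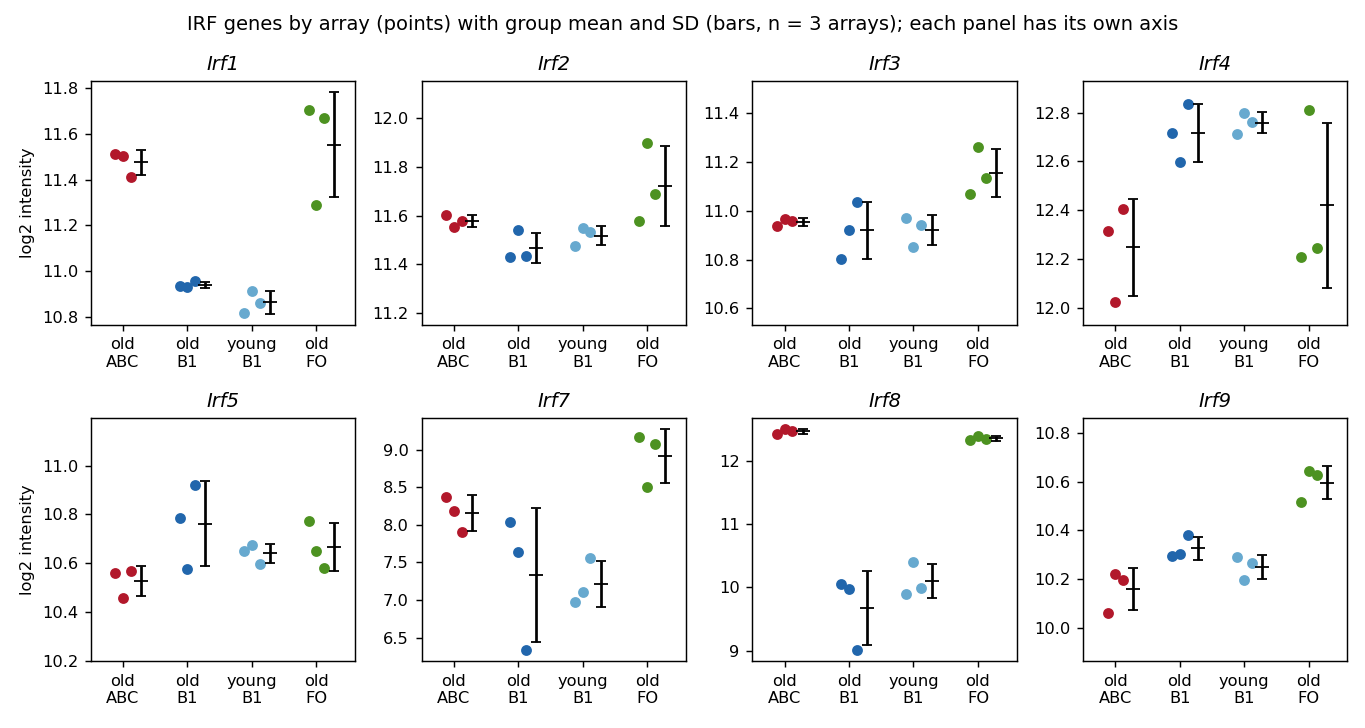
Log2 intensity of each IRF gene (vertical axis, a separate scale for each panel) in the 3 arrays of old ABC, old B1, young B1 and old FO, with the group mean and SD beside the points. Irf8 shows the widest gap, with both B1 groups below ABC and FO, and Irf4 shows FO array 2 apart from the other FO arrays.

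Irf1, the activator of class I antigen presentation and interferon-gamma responses, was lower in old B1 cells than in both splenic groups. It read 2924, 2899 and 2728 in ABC, 1959, 1951 and 1985 in old B1, 1804, 1931 and 1857 in young B1, and 3333, 2500 and 3254 in FO. The ABC and FO arrays overlapped, and no B1 array reached either. Irf1 was higher in ABC than in old B1 by 0.54 ± 0.11, or 1.45-fold (limma adjusted p = 0.0106). Its difference was -0.61 ± 0.11 between old B1 and FO, 1.53-fold lower in old B1 (limma adjusted p = 0.004). Fitted on the old B1 and FO arrays alone, the call for old B1 against FO was lost (limma adjusted p = 0.0649). Without both arrays of low 75th percentile the Irf1 difference was -0.75 (limma adjusted p = 0.000358). Between ABC and FO it was -0.08 ± 0.11 (limma adjusted p = 0.815).

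Irf2, which occupies the same sites as IRF1 and is known mostly as its antagonist, was not called in any comparison. It read 3108, 3009 and 3054 in ABC, 2758, 2975 and 2769 in old B1, 2846, 2993 and 2961 in young B1, and 3057, 3817 and 3303 in FO. The FO arrays spread most and their mean was the highest. Its differences were -0.14 ± 0.10 between ABC and FO (limma adjusted p = 0.495), 0.11 ± 0.10 between ABC and old B1 (0.526), and -0.25 ± 0.10 between old B1 and FO (0.112).

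Among the members that induce interferon, Irf7, the amplifier of the type I interferon response and itself an interferon-stimulated gene, was lower in old B1 than in FO. Irf7 read 331, 292 and 240 in ABC, 262, 199 and 80.5 in old B1, 126, 138 and 189 in young B1, and 575, 363 and 541 in FO. The FO arrays were the 3 highest of the 12, the ABC arrays overlapped the old B1 arrays, and old B1 array 3 was the lowest of all. The difference between old B1 and FO was -1.58 ± 0.38, a ratio of 0.334 of old B1 over FO (limma adjusted p = 0.0159). It was -1.08 without old B1 array 3 (limma adjusted p = 0.0103), and the call was lost without FO array 1 (-1.46, limma adjusted p = 0.0646), without FO array 3 (-1.50, 0.0603) and in a fit of these 2 groups alone (0.11). Irf7 was not called between ABC and FO (-0.76 ± 0.38, limma adjusted p = 0.307) or between ABC and old B1 (0.82 ± 0.38, limma adjusted p = 0.206). That last difference ran from 0.32 without old B1 array 3 to 1.17 without old B1 array 1, and was not called in either fit. Without old B1 array 3 and FO array 2, the difference between ABC and FO was -0.97 and passed the threshold (limma adjusted p = 0.0102).

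Irf3, the constitutively present factor that starts interferon beta transcription, gave different calls on different probe sets. The brightest of its 4 probe sets, 1426111_x_at, read 1961, 2003 and 1989 in ABC, 1786, 1942 and 2099 in old B1, 2006, 1847 and 1969 in young B1, and 2147, 2459 and 2250 in FO. All FO arrays were above all others, and the differences were -0.20 ± 0.09 between ABC and FO (limma adjusted p = 0.273), 0.03 ± 0.09 between ABC and old B1 (0.86) and -0.24 ± 0.09 between old B1 and FO (0.129). The dimmer probe set 1438721_a_at read 231, 240 and 208 in ABC, 202, 252 and 222 in old B1, 263, 232 and 230 in young B1, and 330, 312 and 335 in FO. In the fit of every probe set it was lower in ABC than in FO by a log2 difference of -0.53 ± 0.11 (limma adjusted p = 0.0165) and lower in old B1 than in FO by -0.54 ± 0.11 (limma adjusted p = 0.00976). The probe sets 1416898_a_at and 1435271_at were not called, with differences of -0.20 and -0.41 between ABC and FO, and of -0.26 and 0.06 between old B1 and FO.

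Irf5, which acts below Toll-like receptors through MyD88, was not called in any comparison. It read 1510, 1406 and 1517 in ABC, 1767, 1528 and 1941 in old B1, 1608, 1632 and 1550 in young B1, and 1748, 1608 and 1530 in FO. The ABC arrays were the 3 lowest of the 12. The differences were -0.14 ± 0.11 between ABC and FO (limma adjusted p = 0.557), -0.23 ± 0.11 between ABC and old B1 (0.197) and 0.10 ± 0.11 between old B1 and FO (0.62). The second Irf5 probe set, 1449678_at, was not called either.

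**Figure D2:**
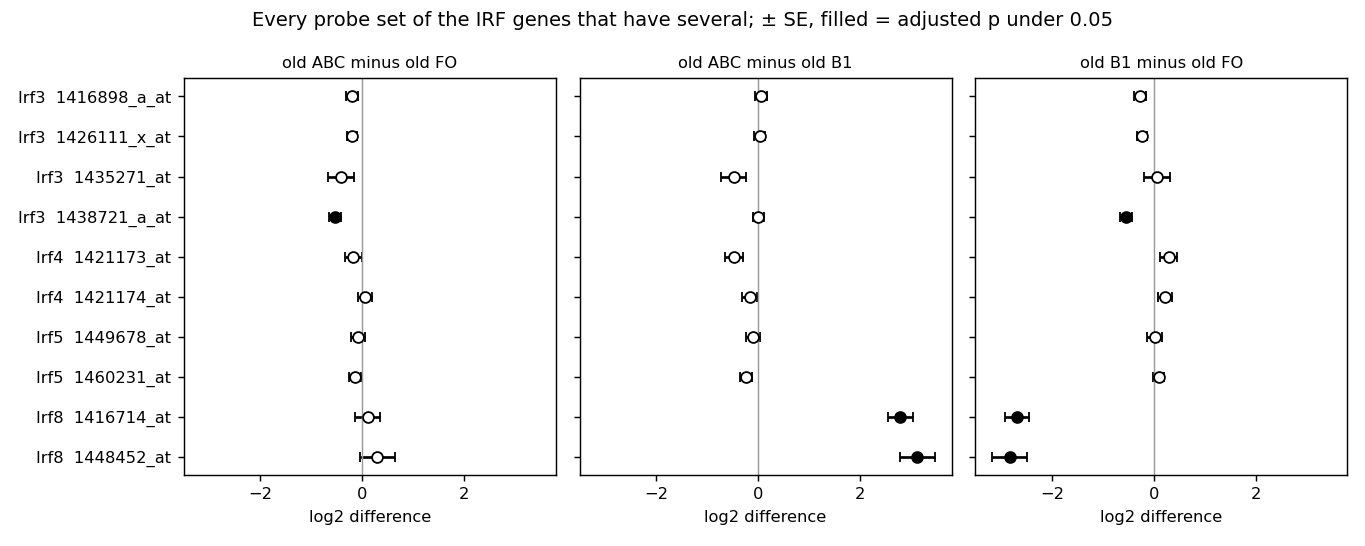
Difference in log2 intensity (horizontal axis) with the SE of the limma fit for each probe set of Irf3, Irf4, Irf5 and Irf8, in the 3 comparisons between old groups, with filled points at an adjusted p under 0.05. Both Irf8 probe sets are called in both B1 comparisons, while 1 of the 4 Irf3 probe sets is called against FO.

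Irf9, the DNA-binding subunit of ISGF3, was the only member called between ABC and FO. It read 1068, 1195 and 1174 in ABC, 1258, 1264 and 1334 in old B1, 1252, 1172 and 1233 in young B1, and 1467, 1599 and 1583 in FO. The FO arrays were the 3 highest and the ABC arrays did not overlap the old B1 arrays, which lay between. Irf9 was lower in ABC than in FO by a log2 difference of -0.44 ± 0.09, or 1.35-fold (limma adjusted p = 0.00921). It was not called between old B1 and FO (-0.27 ± 0.09, limma adjusted p = 0.0618) or between ABC and old B1 (-0.17 ± 0.09, limma adjusted p = 0.268). Under 4 other settings the difference between old B1 and FO passed the threshold, with array weights for example at an adjusted p of 0.0148 (limma).

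Over the family, 1 of 8 members was called between ABC and FO, where 9.96% of all genes were called, and it was lower (7.12% of all genes were called higher and 2.84% lower). The groups did not overlap for 5 of 8 members, against 28.8% of all genes. Between ABC and old B1, 2 of 8 were called, both higher in ABC, where 12.8% of all genes were called, 7.4% higher and 5.43% lower. There the groups did not overlap for 6 of 8 members, against 28.8% of all genes. Between old B1 and FO, 3 of 8 were called, all lower in old B1, where 16.4% of all genes were called, 8.4% higher and 8.02% lower. That split depended on scaling: of all genes, 1529 were higher and 1459 lower, against 1959 and 1114 with cyclic loess and 1404 and 1823 with median centring. Between ABC and FO, 1295 were higher and 517 lower, against 1123 and 762 with median centring. The groups did not overlap for 6 of 8, against 28.9%. Among the 2045 genes whose mean was at or above that of the median member, 8.95%, 13.2% and 17% were called in these comparisons. For 33.2%, 38.2% and 37.5% of those 2045 genes the groups did not overlap, more than over all genes. The count of 1 of 8 is near the background, and with 8 genes the others rest on 2 and 3 calls. The median difference of the members was -0.16, 0.07 and -0.26 in these comparisons, against -0.03, 0.02 and -0.04 over all genes. The comparisons share arrays with one another: ABC, old B1 and FO each enter 2 of these 3, so their values are not independent.

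**Figure D3:**
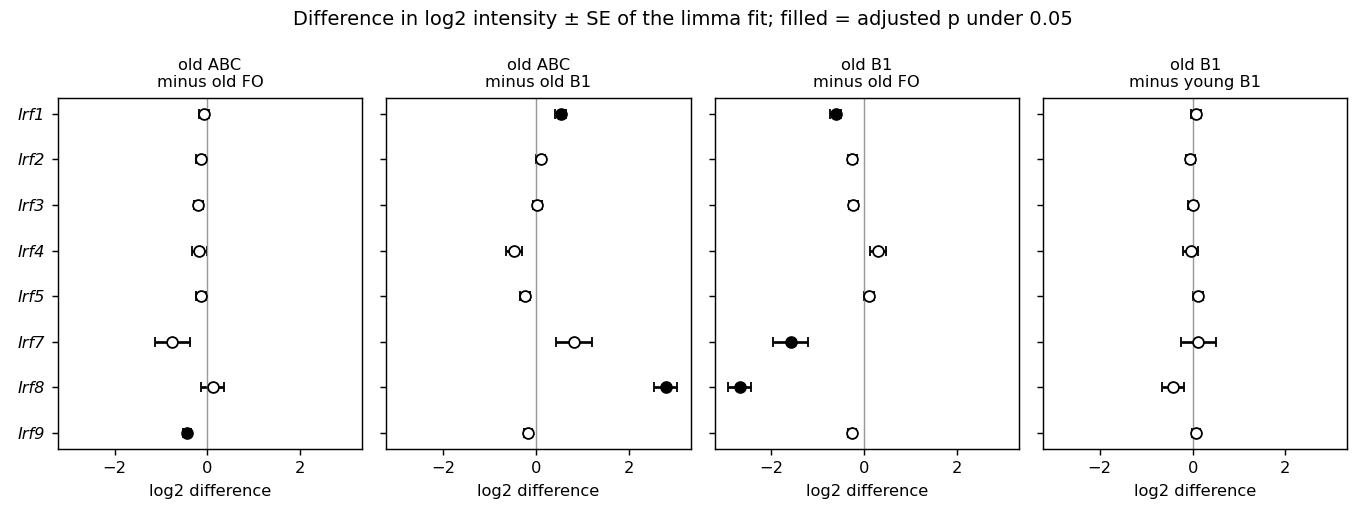
Difference in log2 intensity (horizontal axis) with the SE of the limma fit for the 8 IRF genes in the 4 comparisons, with filled points at an adjusted p under 0.05. Irf8 lies at 2.80 for ABC against old B1 and at -2.68 for old B1 against FO, and no point is filled for old against young B1.

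The members differed widely in how far the group means were apart. The range of the 4 group means was 2.80 for Irf8, 1.70 for Irf7, 0.69 for Irf1, 0.51 for Irf4, 0.44 for Irf9, 0.25 for Irf2, 0.24 for Irf3 and 0.23 for Irf5 on the log2 scale. The mean SD within a group was 0.23 for Irf8, 0.45 for Irf7, 0.09 for Irf1, 0.17 for Irf4 and 0.06 for Irf9, and between 0.07 and 0.09 for the other members. Of all genes, 96.4% had a smaller range than Irf8, 91.6% a smaller one than Irf7 and 72.8% a smaller one than Irf1, while Irf2, Irf3 and Irf5 exceeded 29.9%, 26.6% and 26.4%. FO had the highest group mean for Irf1, Irf2, Irf3, Irf7 and Irf9, ABC for Irf8, old B1 for Irf5 and young B1 for Irf4. ABC had the lowest mean for Irf4, Irf5 and Irf9, and a B1 group the lowest for the other 5.

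Age was compared in B1 cells alone, and no member was called between old and young B1 (limma), where 53 of 18193 genes, or 0.291%, were called (0.159% higher and 0.132% lower). At an unadjusted p under 0.05 the count was also 0 of 8, against 1377 of 18193 genes. The count of adjusted calls was 0 under each of the 28 other settings tried. The groups did not overlap for Irf1 and Irf9, 2 of 8, against 13.9% of all genes and 16.4% of the 2045 genes at least as bright as the median member. The differences of old minus young B1 were 0.08 for Irf1 (95% interval -0.18 to 0.33), 0.08 for Irf9 (-0.12 to 0.27), -0.05 for Irf2 (-0.27 to 0.17) and 0.00 for Irf3 (-0.21 to 0.21). They were -0.04 for Irf4 (-0.41 to 0.33) and 0.12 for Irf5 (-0.11 to 0.36). The intervals were widest for Irf7, at 0.12 (-0.72 to 0.96), and Irf8, at -0.42 (-0.96 to 0.12), the members in which old B1 array 3 was lowest. Without that array they were 0.62 for Irf7 and -0.082 for Irf8. The median difference of the members was 0.04, against -0.01 over all genes.

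The genes whose log2 intensity followed the called members most closely were ranked by Pearson's r over the 12 arrays, among 8782 genes at or above the median intensity. Such an r mostly reads the group means and the arrays they share, and is given as a description. For Irf8 they were Marchf3 (r = 0.990), Pik3ap1 (0.988), a signalling adaptor for PI3 kinase in B cells, and Dexi (0.985). Marchf3 averaged 9.93 in ABC, 5.41 in old B1, 5.67 in young B1 and 9.47 in FO on the log2 scale, so that it followed the Irf8 order of splenic over peritoneal groups. For Irf1 they were Amdhd2 (0.973), Phf14 (0.971) and Slfn8 (0.967), for Irf7 Bend5 (0.974), Bnip3 (0.954) and Cox10 (0.953), and for Irf9 Hmgn1 (0.965), Paip2b (0.896) and Dusp7 (0.891).

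A list of 11 genes held partners of IRF4 and IRF8 in DNA binding and other regulators, among them Id2 and Bach2. Of the 11, 3 were higher and 0 lower in ABC than in FO, and 3 higher and 0 lower than in old B1. In old B1, 1 was higher and 1 lower than in FO. The median difference was 0.11, 0.13 and 0.02, against -0.03, 0.02 and -0.04 over all genes. In the same order, 9.96%, 12.8% and 16.4% of all genes were called. Batf, which binds with IRF4 and IRF8 at AP-1 composite sites, read 853, 947 and 663 in ABC, 487, 413 and 486 in old B1, 442, 501 and 432 in young B1, and 511, 379 and 433 in FO. Its ABC arrays lay above all others, at 0.89 ± 0.16 over FO (limma adjusted p = 0.00428) and 0.82 ± 0.16 over old B1 (limma adjusted p = 0.00611). Id2, an inhibitor of E proteins, was higher in ABC by 1.68 against FO and 1.56 against old B1 (limma adjusted p = 0.0108 and 0.0131), and Ikzf3 by 0.49 against FO (0.0453). Bach2, a repressor of the plasma cell program, was 1.04 higher in ABC than in old B1 (limma adjusted p = 0.0277) and differed by -1.68 between old B1 and FO (0.00159), where Batf3 was 1.85 higher (0.00794). Neither Spi1 nor Spib was called in these comparisons, with Spi1 at -0.10, 0.05 and -0.16 and Spib at -0.24, -0.26 and 0.02. Without old B1 array 3 and FO array 2 the counts were 4 higher and 1 lower, 3 higher and 1 lower, and 2 higher and 2 lower.

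Among the genes of plasma cells and germinal centres that IRF4 is known to direct, several were called while Irf4 was not. Of 8 measured, 3 were higher and 0 lower in ABC than in FO, and 4 were higher and 0 lower in ABC than in old B1. In old B1, 2 were higher and 2 lower than in FO. The medians were 0.72, 0.52 and -0.19, and 9.96%, 12.8% and 16.4% of all genes were called. Without old B1 array 3 and FO array 2, 5 of the 8 were higher and 0 lower in ABC than in FO. Prdm1, the plasma cell repressor Blimp-1, was 1.75 higher in ABC than in FO (limma adjusted p = 0.0449) and 2.48 higher in old B1 than in FO (0.00505). Sdc1 was 1.86 higher in ABC than in FO (limma adjusted p = 0.00229), 4.02 higher in ABC than in old B1 (1.53e-05) and differed by -2.16 between old B1 and FO (0.000592). Bcl6, the germinal centre repressor, was 1.61 higher in ABC than in old B1 (limma adjusted p = 0.00113) and differed by -2.28 between old B1 and FO (8e-05). Zbtb20 was called higher in ABC and in old B1 than in FO, and Mybl1 and Xbp1 higher in ABC than in old B1. Summed over 8 plasma cell markers, some of them the same genes, the intensity was 20600 to 23700 in ABC, 12100 to 15900 in old B1, and 9710 to 16800 in FO, and the part of plasma cells in these differences was not tested.

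Among 12 genes of antigen presentation and IRF1 response, 0 were called between ABC and FO in limma, with 0 also without old B1 array 3 and FO array 2. Against old B1, 4 were higher and 2 lower in ABC, and 2 were higher and 3 lower in old B1 than in FO (medians 0.18, 0.23 and -0.09). Of all genes, 9.96% were called between ABC and FO, 12.8% between ABC and old B1 and 16.4% between old B1 and FO. Ciita, the master activator of MHC class II, read 2189, 2520 and 2698 in ABC, 528, 716 and 375 in old B1, 582, 784 and 614 in young B1, and 2154, 1491 and 2232 in FO. No B1 array came near the splenic arrays, and Ciita was 2.24 ± 0.24 higher in ABC than in old B1 (limma adjusted p = 0.000168) and differed by -1.89 ± 0.24 between old B1 and FO (limma adjusted p = 0.000353). Nlrc5, the activator of class I genes, and the peptide transporter Tap1 were likewise higher in ABC than in old B1 and lower in old B1 than in FO, and the immunoproteasome subunit Psmb9 was higher in ABC than in old B1. The interferon-induced GTPases Gbp2 and Gbp3 went the other way: Gbp2 differed by -1.56 between ABC and old B1 (limma adjusted p = 0.000536) and was 1.73 higher in old B1 than in FO (0.000188).

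Of 10 measured genes of the interferon receptors and ISGF3, 1 was higher and 2 lower in ABC than in FO, 2 were higher and 1 lower in ABC than in old B1, and 0 were higher and 5 lower in old B1 than in FO. The medians were -0.23, 0.36 and -0.45, and 9.96%, 12.8% and 16.4% of all genes were called. Stat2, the partner of IRF9 in ISGF3, read 568, 570 and 655 in ABC, 461, 458 and 310 in old B1, 529, 549 and 657 in young B1, and 770, 790 and 736 in FO. Its FO arrays were the highest and its old B1 arrays the lowest, with a difference of -0.93 ± 0.16 between old B1 and FO (limma adjusted p = 0.00244) and 0.57 ± 0.16 between ABC and old B1 (0.0395). The last of these calls was lost without old B1 array 3 and FO array 2. Ifngr2, a chain of the interferon gamma receptor, read 611, 632 and 668 in ABC, 335, 261 and 295 in old B1, 379, 461 and 447 in young B1, and 665, 747 and 770 in FO. It was 1.11 ± 0.12 higher in ABC than in old B1 (limma adjusted p = 0.000211) and differed by -1.30 ± 0.12 between old B1 and FO (limma adjusted p = 4.61e-05). Usp18, the brake on the type I receptor and a target of ISGF3, read 96.5, 58.4 and 69.5 in old B1 against 380, 302 and 468 in FO, a difference of -2.37 ± 0.26 (limma adjusted p = 0.000154). It read 173, 92.2 and 98 in ABC, below FO as well (limma adjusted p = 0.002). Ifnar1 and Jak1 were the other genes lower in old B1 than in FO. Tyk2 was higher in ABC than in FO, and Jak2 was lower in ABC than in FO and than in old B1.

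Of 18 measured genes that carry signals to IRF3, IRF5 and IRF7, 4 were higher and 1 lower in ABC than in FO. Against old B1, 5 were higher and 1 lower in ABC, and 2 were higher and 2 lower in old B1 than in FO. The medians were 0.30, 0.22 and -0.04, and 9.96%, 12.8% and 16.4% of all genes were called. Ticam1 (TRIF, the adaptor of TLR3) was 0.59 higher in ABC than in FO (limma adjusted p = 0.00277), with Tlr3 at 0.80 (0.00874), Unc93b1, which brings nucleic acid receptors to endosomes, at 0.64 (0.0223), and the RNA sensor Ifih1 at 1.01 (0.0328). The RNA sensor Ddx58 was lower in ABC, by -0.58 against FO (limma adjusted p = 0.0495) and by -0.86 against old B1 (0.00586). Without old B1 array 3 and FO array 2, Ddx58 and Ifih1 were no longer called between ABC and FO. Slc15a4, Unc93b1, the DNA sensor Cgas, its adaptor Sting1 and Tlr3 were higher in ABC than in old B1. Sting1 differed by -1.11 between old B1 and FO (limma adjusted p = 0.00233) and Traf6 was also lower, while Ticam1 and Ifih1 were higher in old B1.

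Interferon-stimulated genes are among the targets of IRF9, IRF7 and IRF1. Of 18 measured, 1 was higher and 6 lower in ABC than in FO, 3 were higher and 3 lower in ABC than in old B1, and 0 were higher and 4 lower in old B1 than in FO (medians -0.65, -0.21 and -0.20). Over all genes the calls were 7.12% higher and 2.84% lower for ABC against FO. They were 7.4% higher and 5.43% lower for ABC against old B1, and 8.4% higher and 8.02% lower for old B1 against FO. Without old B1 array 3 and FO array 2 the counts were 1 higher and 8 lower, 3 higher and 6 lower, and 0 higher and 5 lower. Oasl1, which restrains Irf7 translation in mice, read 182, 126 and 109 in ABC, 73.2, 47.3 and 31.4 in old B1, 94.9, 121 and 89.3 in young B1, and 451, 349 and 397 in FO. Like Irf7, it was highest in the 3 FO arrays, with a difference of -3.06 ± 0.29 between old B1 and FO (limma adjusted p = 4.96e-05). On old B1 arrays 2 and 3 Oasl1 read below the array medians of 47.8 and 44.4, so the size of that difference is uncertain. Rtp4, Mx2 and Cxcl10 were the other genes lower in old B1 than in FO. Cxcl10, a chemokine induced by interferon gamma, was the gene called higher in ABC than in FO, reading 1197, 1349 and 1712 in ABC, 31.5, 32.7 and 23.2 in old B1, 31.8, 26.2 and 28 in young B1, and 56.1, 127 and 79.3 in FO. It was called higher in ABC than in FO (limma adjusted p = 9.18e-06) and than in old B1 (9.51e-07). Its old B1 values lay below the median of their arrays, so no size is given for that difference. Mx1 and Oasl1 were also higher in ABC than in old B1, and the RNA-sensing synthetase genes Oas2 and Oas3 and the related Oasl2 were lower. No listed gene of these pathways was called between old and young B1 (limma), where 0.291% of all genes were called. The list medians of old minus young B1 ran from -0.40 (interferon receptors and ISGF3) to 0.20 (interferon-stimulated genes), against -0.01 over all genes. The summed intensity of the interferon receptor and ISGF3 genes was 8000 to 11800 in old B1 and 12400 to 13300 in young B1.

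**Figure D4:**
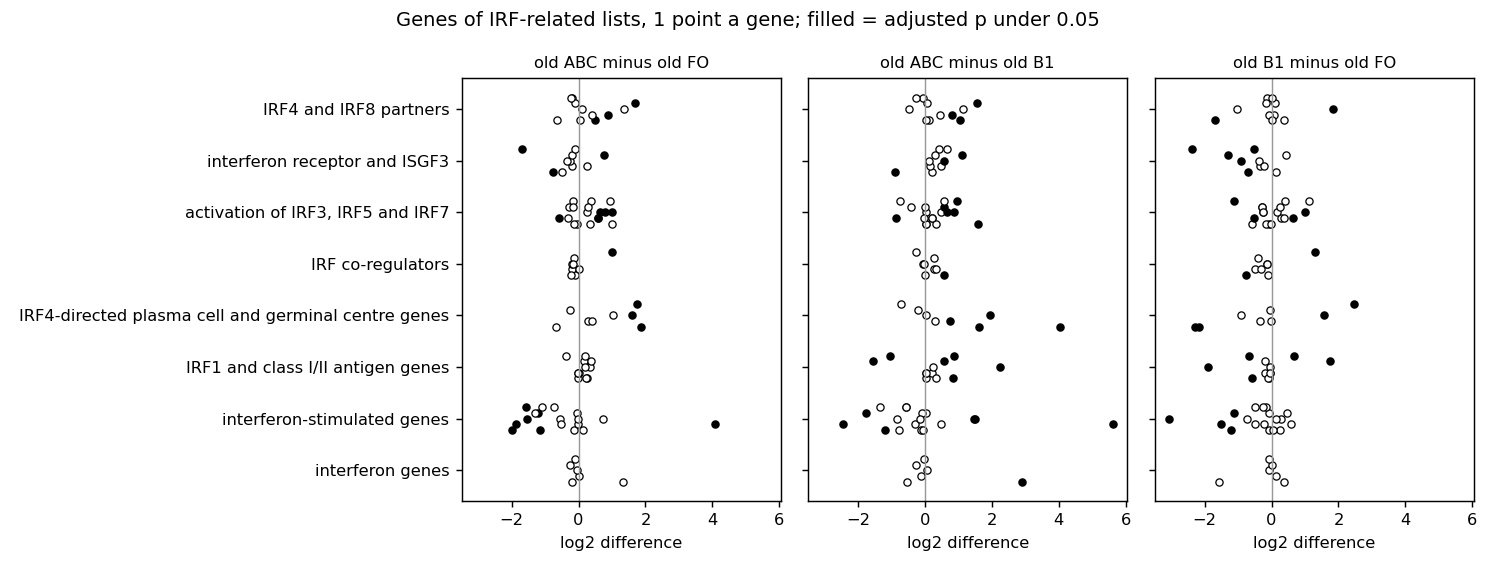
Difference in log2 intensity (horizontal axis) for each measured gene of 8 IRF-related lists in the 3 comparisons between old groups, 1 point a gene, with filled points at an adjusted p under 0.05. The interferon receptor and ISGF3 genes called for old B1 against FO are all to the left of 0, and Cxcl10 is the far right point among the interferon-stimulated genes in both ABC panels.

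Non-B cell markers also differed between the groups. Of 15 macrophage markers, 11 were higher and 0 lower in ABC than in FO, 15 higher in old B1 than in FO, and 1 higher and 2 lower in ABC than in old B1, with medians of 2.16, 3.08 and -0.88. In the same order, 9.96%, 16.4% and 12.8% of all genes were called. The macrophage gene Adgre1 read 4510 to 6220 in ABC, 527 to 1750 in old B1 and 237 to 333 in FO, and Csf1r read 1810 to 2620 in ABC, 314 to 3150 in old B1 and 129 to 348 in FO. Of 10 neutrophil markers, 6 were higher in ABC than in FO and 9 higher in ABC than in old B1, with summed intensities of 20800 to 35200 in ABC, 211 to 407 in old B1 and 459 to 9980 in FO. Of 8 mast cell markers, 5 were higher in old B1 than in FO, with sums of 484 to 1250 in ABC, 2060 to 5010 in old B1 and 224 to 248 in FO. Plasmacytoid dendritic cells are rich in IRF7. Of their 5 markers 1 was higher and 1 lower in old B1 than in FO, the sums were 404 to 618 in ABC, 392 to 550 in old B1 and 466 to 506 in FO, and the defining marker Siglech read 58.2 to 76.6 in ABC, 38 to 53.2 in old B1 and 35 to 46.4 in FO. The part of such cells in the IRF differences was not tested.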

How the data were processed

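Per the labels' protocols, total RNA of the sorted cells was isolated with a picoPure kit and biotinylated cRNA was hybridised to Affymetrix mouse arrays. The values are intensity on a linear scale, deposited by the authors. RMA and affy appear, per the submitters' processing notes, with versions not given in the sources used here. RMA normally ends on a log scale with arrays made alike. The deposited intensities were taken as already normalized, and their log2 was tested. They were not fully alike, with 75th percentiles from 346 to 412.

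Of 45037 probe sets, 34945 carried 1 gene symbol. For each gene the probe set brightest on average across the arrays was kept, which left 18193 genes, and no dim genes were removed. The 4 group means were fitted with limma 3.58.1 (R 4.3.3, 8 residual and 2.37 prior degrees of freedom), and a gene was called at an adjusted p under 0.05. The fit was tested on simulated data. Promoters were read with Python 3.11.15 and figures drawn with matplotlib 3.10.9.

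The members and lists were chosen with earlier results of these data known. All 8 members are named in every comparison, and of each list up to 4 called genes in order of p and any needed for a count of 5 or fewer. Levels are not compared between probe sets. Alternatives covered normalization, weights, filters, the choice of probe set, the model, the threshold and each array left out. Listed genes without a single-symbol probe set were not analysed here.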

Additional observations from a re-analysis of the deposited data

How the results depend on the processing

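The 32 member differences were recomputed under 28 alternatives. Of 896 values, 858 kept direction and side of the threshold, 16 came to pass it, 6 no longer passed it and 16, all uncalled before, changed sign. Irf8 kept both calls (2.46 to 3.13 for ABC against old B1, -2.87 to -2.33 for old B1 against FO) and Irf9 its call for ABC against FO (-0.52 to -0.39) in all 28, and Irf1 its call for ABC against old B1 (0.49 to 0.57) in all but the threshold of 0.01. The causes of the changes were not tested.

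The changes of sign were Irf4 for ABC against FO (0.0226 without both old B1 array 3 and FO array 2; -0.28 to 0.0226 with 1 array left out), Irf3 for ABC against old B1 (-1e-04 with median centring, -0.0904 as the mean of its probe sets, -0.47 on its most variable probe set; -0.0248 to 0.0917 with 1 array left out) and Irf3 for old B1 against FO (0.0625 on its most variable probe set). For old against young B1 they were Irf3 (0.0402 with cyclic loess, 0.0102 with quantile normalization, 0.0201 with median centring), and with 1 array left out Irf3 (-0.0588 to 0.0578), Irf7 (-0.23 to 0.62) and Irf4 (-0.0999 to 0.0183).

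Genes called were 1812 for ABC against FO, with 3961 under array weights, 2748 with the 75th percentile as a covariate, 2964 without both arrays of low 75th percentile, 990 at an adjusted p under 0.01, and 1267 to 2837 with 1 array left out (2837 without old B1 array 3). For ABC against old B1 they were 2334, with 3592 under array weights, 1062 in a fit of the 2 groups alone, 3694 with each probe set its own feature, 1281 at 0.01, and 1609 to 2738 with 1 array left out. For old B1 against FO they were 2988, with 5001, 1455, 4964 and 1706 under those 4 settings and 2098 to 3555 with 1 array left out. For old against young B1 they were 53, with 316 under array weights, 2 in the fit of 2 groups, 32 with a replicate block, 80 with the covariate, 208 without both arrays, 15 at 0.01, and 17 to 165 with 1 array left out (165 without old B1 array 3, 17 without young B1 array 1).

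IRF genes called were 1 for ABC against FO, with 2 under array weights, under the covariate and without both arrays, and 1 to 2 with 1 array left out. For ABC against old B1 they were 2, with 1 at 0.01 and 2 to 3 with 1 array left out, and for old B1 against FO 3, with 6 under array weights, 5 under the covariate, 1 in the fit of 2 groups, and 2 to 4 with 1 array left out. They were 0 for old against young B1 throughout. Deviations of same-numbered arrays from their group means had r from -0.391 to 0.228 over 12 pairs, 2 of them over 0.1. With 3 arrays a group and arrays shared between pairs, these r cannot tell whether the numbers pair the samples. With the replicate block 1543, 2034 and 2570 genes were called in the first 3 comparisons, and the IRF counts of 1, 2, 3 and 0 did not change. The counts of listed genes without both arrays were an alternative added after the data were seen.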

Other observations

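Irf2bp2 and Irf2bpl, related co-regulators, the first of which binds IRF2, differed in opposite directions between old B1 and FO cells. Of 8 measured genes in the list of IRF co-regulators, 1 was higher in ABC than in FO and 1 higher in ABC than in old B1. Between old B1 and FO, 1 was higher and 1 lower in old B1. In these comparisons 9.96%, 12.8% and 16.4% of all genes were called. Irf2bp2 read 2941, 2434 and 3279 in ABC, 3131, 2912 and 4577 in old B1, 4136, 4044 and 3704 in young B1, and 1064, 2063 and 1301 in FO. All 3 FO arrays were below all others. The difference was 1.29 ± 0.24 between old B1 and FO (limma adjusted p = 0.00432) and 1.01 ± 0.24 between ABC and FO (limma adjusted p = 0.0237). Of its 4 probe sets, 3 were called in each of these comparisons: another was at 0.46 between old B1 and FO (limma adjusted p = 0.466), and a further one at 1.17 between ABC and FO (limma adjusted p = 0.0743). Irf2bpl read 1517, 1661 and 1584 in ABC, 1074, 1182 and 982 in old B1, 1074, 1349 and 1208 in young B1, and 2083, 1472 and 2039 in FO. Its difference was -0.78 ± 0.15 between old B1 and FO (limma adjusted p = 0.00467) and 0.56 ± 0.15 between ABC and old B1 (limma adjusted p = 0.0312). All 3 of its probe sets were called lower in old B1 than in FO, and 1 of the 3 higher in ABC than in old B1. These 4 calls stood without old B1 array 3 and FO array 2.

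Of 6 measured interferon genes, Ifng, the gene of interferon gamma, was the only one called (limma). It was called only between ABC and old B1, where 12.8% of all genes were called. It read 222, 163 and 83.2 in ABC, 42.5, 21.4 and 8.1 in old B1, 36.9, 19.1 and 21.6 in young B1, and 46.2, 57.3 and 71.5 in FO. Every ABC array was above every other array, and the call against old B1 had a limma adjusted p of 0.00594 (0.198 against FO). All old B1 values were below the median of their arrays, 44.4 to 47.8, so no size is given for this difference. Of 9 T cell markers 1 and of 6 natural killer cell markers 2 were higher in ABC than in old B1, where 7.4% of all genes were called higher. Against FO 1 and 2 of these markers were also higher in ABC, where 7.12% of all genes were called higher. The T cell markers summed to 2840 to 3460 in ABC, 649 to 3000 in old B1 and 1190 to 2470 in FO, and the natural killer cell markers to 919 to 2420 in ABC, 134 to 901 in old B1 and 311 to 411 in FO. Their part in the Ifng level was not tested.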
